A study of Homo sapiens with 4 samples.

Results

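The m6A writer genes examined here are the 9 genes METTL3, METTL14, WTAP, VIRMA, ZC3H13, CBLL1, RBM15, RBM15B and METTL16, which encode the enzymes that place N6-methyladenosine (m6A) on RNA and their cofactors. They were chosen by name, and their peaks were found by matching the Ensembl gene ID of each peak to its symbol. In the deposited list of 20261 m6A peaks on 10140 gene IDs, 33 peaks belonged to 8 of the 9 genes, and METTL14 was the gene without a peak. The list came from m6A-seq of poly(A) RNA of MDA-MB-231, a human cell line derived from a triple negative breast cancer. Fragmented mRNA was immunoprecipitated (IP) with an anti-m6A antibody, and the 2 IP libraries were set against 2 input libraries that had not been immunoprecipitated. All 4 libraries were from cells labelled shNS, with no treatment other than the immunoprecipitation in the labels. The treatment field of the IP libraries names YTHDC1, while their titles and protocol give m6A-seq with the anti-m6A antibody, which was followed here.

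m6A on mRNA is written in the nucleus while genes are transcribed. METTL3 carries the catalytic site and METTL14 is its RNA-binding partner, and together they form the methyltransferase core. WTAP, VIRMA, ZC3H13, CBLL1, RBM15 and RBM15B form the regulatory part of the complex, which holds the core in the nucleus and brings it to its target RNAs. METTL16 works apart from this complex on a spliceosomal small nuclear RNA and on the mRNA of MAT2A, the enzyme that makes the methyl donor. In mRNA, m6A is known to be frequent in long internal exons and around the stop codon.

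The question here was whether the transcripts of the writers themselves carried m6A peaks, where these lay, and how strong they were. Each peak has 1 score, taken to be the p-value from the comparison of IP with input, although an FDR is also possible since the file names neither. Smaller scores are called stronger below, and a stronger peak in this sense is not a measure of how much of the RNA is methylated. The list was made from all libraries of both groups at once, so no value below has a spread between replicates, no difference was tested, and how many reads lie behind a peak is not known. Over the whole list the scores had a median of 5.2e-08 and a maximum of 0.0089. Coordinates are on hg38, as the labels name the build, counted from 1, and gene ends are those of RefSeq on GRCh38.p14.

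On the plus strand WTAP, RBM15B, RBM15 and CBLL1 had 14 peaks, and on the minus strand ZC3H13, VIRMA, METTL3 and METTL16 had 19. Among all protein-coding RefSeq genes, expressed or not, 40.8% had at least 1 peak, 29.3% of those on the plus strand and 55.6% of those on the minus strand. Of the writers, 8 of 9 had a peak, 4 of the 5 plus-strand genes and all 4 minus-strand genes. At least 1 peak that reached the list median in strength was present in 7 of the 9 genes and in 26.6% of all protein-coding genes. The background includes genes that these cells do not express, so the 2 shares do not compare like with like.

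The writers had 4.12 ± 2.17 peaks each (mean ± SD over the 8 genes with a peak), against 2 ± 1.45 over all 10140 genes with a peak. By strand, the means were 3.5 against 1.6 on the plus strand and 4.75 against 2.21 on the minus strand, with 4 writers on each. ZC3H13 had 8 peaks, RBM15 had 6, VIRMA had 5 and RBM15B had 4. WTAP, METTL3 and METTL16 had 3 each and CBLL1 had 1. The median spliced length of a writer peak was 270 bases, with a range of 61 to 990 bases, and the median over the whole list was 211 bases. Of the 33 peaks, 27 lay in 1 block and 6 (18.2%) ran over several blocks, as did 17.9% of all peaks.

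**Figure D1:**
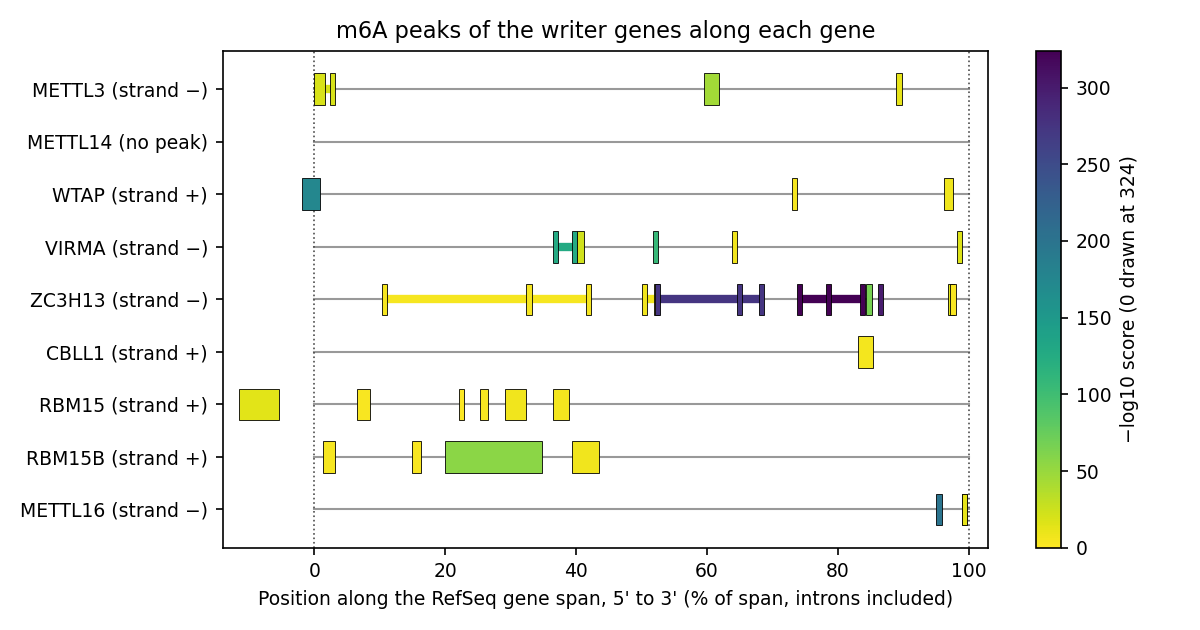
Peaks of the 9 writer genes along the RefSeq span of each gene, drawn from the 5′ end (0%) to the 3′ end (100%), with boxes for blocks (widened to 0.8% of the span where shorter), thick lines joining blocks of 1 peak and colour for −log10 score. RBM15 and RBM15B have their peaks in the 5′ part of the gene, METTL16 has all 3 near the 3′ end (its last 2 overlap) and METTL14 has none.

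METTL3, the catalytic subunit (ENSG00000165819.12, chromosome 14, 21498138 to 21511340, minus strand), had 3 peaks with 660 spliced bases. The strongest was a peak of 300 bases at 21503180 to 21503479 with a score of 2.5e-45, centred at 60.7% of the gene span. A peak at the 5′ end, 21510960 to 21511342, had a score of 1.6e-20 and blocks of 219 and 21 bases. The third, 21499476 to 21499595, was 120 bases long, had a score of 2.5e-12 and lay 1338 bases short of the 3′ end. All 3 scores were under the list median, and the peaks were spread over the whole gene and not gathered at one end.

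The peak at the 5′ end of METTL3 covered all 50 transcribed bases of the RefSeq start window of the gene and ran 2 bases beyond its start. Of the writers in the RefSeq table of start windows, METTL3 was the only gene whose listed start lay inside a peak, and the sequence is shown for this reason. Its 30 transcribed bases from the start, at chr14:21511311-21511340 on the minus strand of GRCh38.p14 and written 5′ to 3′ with the start base in capitals, were:
METTL3 start: Attttccggttagccttcggggtgtccgcg
Anti-m6A antibodies are also known to bind m6Am, a mark on an adenosine next to the mRNA cap that PCIF1 writes. The start base of METTL3 was an A, as in 50.7% of the start windows of 15843 protein-coding genes and in 61.5% of the 1048 whose start lay inside a peak. Neither GAC nor AAC, the core letters of the m6A context, occurred in the 50 bases, searched on the transcribed strand. Within the same 50 bases, 63.8% of all these windows held one of them, as did 65.3% of the 1048 whose start lay inside a peak. The rest of the peak lies beyond this window and was not searched, and which of these marks the peak reflects was not tested.

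METTL14 (chromosome 4, 118685392 to 118715430), the partner of METTL3, had no peak in the list. The list holds no expression values and no read counts, so the absence of a peak is not a measure of unmethylated METTL14 mRNA. METTL14 is a plus-strand gene, a strand on which 29.3% of protein-coding genes had a peak.

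WTAP, the adaptor that holds the METTL3 and METTL14 core in nuclear speckles (ENSG00000146457.16, chromosome 6, 159726693 to 159756319, plus strand), had the strongest peak of the plus-strand writers. This peak, 159726154 to 159726933, was 780 bases long with a score of 1e-174. It started 539 bases before the 5′ end of the RefSeq span and reached 240 bases past it. The RefSeq start windows of WTAP belong to starts further along, at 159727117 and 159727506, and none of the 50 transcribed bases of either was inside the peak. The second peak, 159748371 to 159748521, had 151 bases and a score of 3e-05, and the third, 159755180 to 159755600, had 421 bases and a score of 7.9e-09 and ended 719 bases before the 3′ end. The 5′ peak thus stood far apart from the others, and it held 57.7% of the 1352 peak bases of the gene. All 3 peaks lay within the RefSeq span of SOD2, a minus-strand gene of the mitochondrial superoxide dismutase, which had no peak in the list.

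VIRMA, the large scaffold of the complex that is known to direct methylation toward the 3′UTR and the stop codon (ENSG00000164944.12, chromosome 8, 94487689 to 94553469, minus strand), had 5 peaks with 1949 spliced bases. The strongest, 94527278 to 94529313, had a score of 1e-127 and blocks of 244 and 86 bases. The next peak along the transcript, 94526410 to 94527098, began 179 bases further on in the genome, was 689 bases long and had a score of 1.3e-24. A peak of 300 bases at 94519035 to 94519334 was nearly as strong as the first (1e-107). The remaining peaks had a score of 1.6e-07 (94511042 to 94511461, 420 bases) and 2.5e-17 (94488527 to 94488736, 210 bases), and the latter ended 838 bases before the 3′ end. The strong peaks of VIRMA thus lay between 38.3% and 52.1% of the span, in the body of the gene, and the peak at its 3′ end was much weaker.

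ZC3H13, the zinc finger protein that keeps the regulatory part of the complex in the nucleus (ENSG00000123200.16, chromosome 13, 45954465 to 46052746, minus strand), had the most peaks, the most peak bases (3511) and the smallest score of the writers. The peak at 45970389 to 45979868, was listed with a score of 0, taken to be too small to be stored, and had blocks of 56, 556 and 77 bases. Close to it on both sides were peaks with scores of 1e-274 (45985399 to 46001208, 720 bases in 3 blocks), 5e-67 (45969011 to 45969849, 839 bases) and 1e-299 (45967544 to 45967993, 450 bases). These 4 peaks were centred from 60.5% to 86.5% of the span. The other 4 were weak to moderate. A peak in 3 blocks nearer the 5′ end (46011535 to 46042267) had a score of 0.00013 and the next (46001327 to 46003245) 5.6e-08, just above the list median. Near the 3′ end, a peak of 270 bases (45956979 to 45957248) had a score of 1e-15 and one of 61 bases (45956799 to 45956859) had 0.0028. The run of strong peaks thus ended before the last 10% of the span, where the peaks were many orders of magnitude weaker.

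CBLL1, a RING finger ubiquitin ligase also called HAKAI (ENSG00000105879.12, chromosome 7, 107744142 to 107761667, plus strand), had 1 peak of 390 bases at 107758709 to 107759098. Its score of 1.9e-06 was above the list median, which makes CBLL1 the writer gene with the weakest strongest peak. The peak was centred at 84.2% of the span and ended 2569 bases before the 3′ end.

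**Figure D2:**
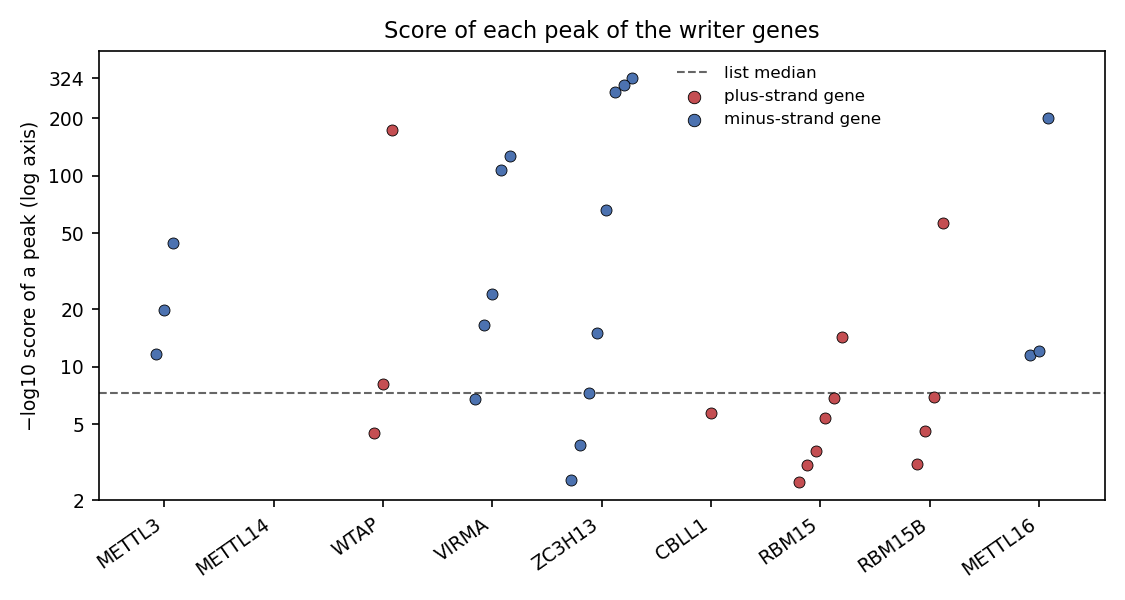
The −log10 score of each of the 33 peaks (log axis, 1 point per peak, side by side within a gene in order of strength), with the list median as a dashed line. METTL3 and METTL16 have every peak above the line (stronger), while RBM15 and RBM15B have 1 each above it and CBLL1 none.

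RBM15 and RBM15B are paralogues that bind RNA and recruit the methyltransferase to their targets. RBM15 (ENSG00000162775.16, chromosome 1, 110339377 to 110346677, plus strand) had 6 peaks with 1171 bases. The strongest, 110338536 to 110338985, was 450 bases long with a score of 5e-15 and lay wholly before the RefSeq 5′ end, from which it was 392 bases away. The list assigns it to RBM15. It lay within the RefSeq spans of LOC124904276 and of the antisense gene RBM15-AS1, the latter of which had 1 peak elsewhere in the list (0.0023) that shared no base with it. The other 5 peaks of RBM15 had scores of 0.00024, 0.0032, 0.00085, 1.5e-07 and 4.2e-06 from 5′ to 3′, all above the list median, and lengths of 150, 61, 90, 240 and 180 bases.

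RBM15B (ENSG00000259956.2, chromosome 3, 51391285 to 51397908, plus strand) had 4 peaks with 1473 bases. The strongest, 51392604 to 51393593, was 990 bases long, the longest peak of any writer gene, and had a score of 2.5e-57. The others were 121 bases at 51391375 to 51391495 (2.5e-05), 91 bases at 51392274 to 51392364 (0.00081) and 271 bases at 51393892 to 51394162 (1.1e-07). Peaks covered 22.2% of the span of RBM15B, and 1 peak held 67.2% of the peak bases.

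Both paralogues had their peaks toward the 5′ end and none beyond the middle of the genomic span. Coding sequence and UTRs were not told apart, so where these peaks lie relative to the stop codon is not known. The last peak was centred at 37.7% of the span in RBM15 and at 41.4% in RBM15B, and ended 4460 and 3746 bases before the 3′ end. They were the only writers with a peak for which this was so. Among all 7799 protein-coding genes with a peak inside their span, 17.9% had no peak centred beyond 50% of it. The share was 23.5% among the 1580 genes with a span under 10000 bases, as both paralogues have. Among the 102 of these with at least 4 peaks inside the span, the share was 4.9%, or 5 genes, RBM15 and RBM15B included. Among the 961 protein-coding genes of any span with at least 4 peaks inside it, the share was also low, at 3.75%. The limits on span and peak number were not planned and were matched to the paralogues, which are themselves among the 5 genes. The 4.9% therefore cannot show that their layout is unusual, and no conclusion is drawn from it.

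METTL16 (ENSG00000127804.13, chromosome 17, 2415715 to 2511888, minus strand), the methyltransferase that acts alone, had all its peaks near the 3′ end. The strongest, 2419707 to 2420546, was 840 bases long with a score of 1e-199 and was centred at 95.4% of the span. The other 2 records, 2416282 to 2416486 (3.2e-12) and 2416289 to 2416469 (7.9e-13), shared 181 bases, so that the shorter lies wholly within the longer and they mark 1 place, 567 bases before the 3′ end. All 3 METTL16 records were in the second part of the list, a block after the point where the chromosome order begins anew, with 745 of the 20261 peaks. Without that part METTL16 would have no peak, and 7 of the 9 writers would have one.

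To rank the writers by strength, each gene was represented by its smallest score and compared with the genes of its own strand, because the list is divided unequally between strands. The median of the smallest score was 1e-06 over the 3516 plus-strand genes with a peak and 4e-22 over the 6624 minus-strand genes. On the plus strand, a score as small as that of WTAP was reached by 83 genes (2.36%), WTAP included. The same count was 276 genes (7.85%) for RBM15B, 837 (23.8%) for RBM15 and 1841 (52.4%) for CBLL1. The position of RBM15 rested on the peak before its RefSeq 5′ end. Without peaks wholly outside the span of their gene, RBM15 stood at 44.7% (1549 of 3462 genes), while each of the other 7 writers moved by less than 1 percentage point. The strongest peak of WTAP was kept, since it started 539 bases before the RefSeq 5′ end but reached 240 bases past it. The strongest WTAP peak wholly inside the span had a score of 7.9e-09, and the rank of WTAP by that peak was not computed. On the minus strand, ZC3H13 shared its score of 0 with all 386 genes listed at 0 (5.83%), which cannot be ordered among themselves. METTL16 was matched by 718 genes (10.8%), VIRMA by 1172 (17.7%) and METTL3 by 2402 (36.3%). Of the 8 genes, 7 were in the stronger 50% of their strand, and the median of the 8 percentages was 14.3%, where the middle gene of a strand is at about 50% by construction.

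**Figure D3:**
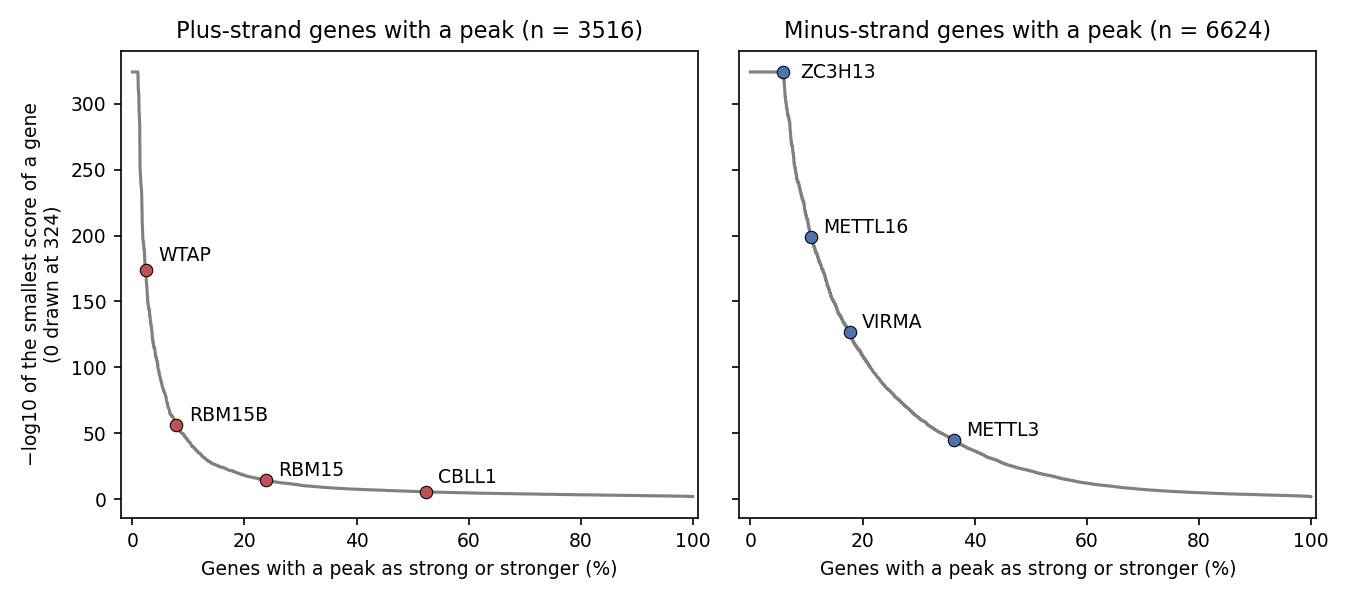
The −log10 of the smallest score of every gene with a peak against the share of same-strand genes that are as strong or stronger (grey line), for 3516 plus-strand and 6624 minus-strand genes, with the writers as points. WTAP and ZC3H13 stand near the top of their strand and CBLL1 near the middle of its strand, and the minus-strand line lies far above the plus-strand line at most ranks.

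Ranking over both strands together changed the order of the writers. WTAP then stood at 9.27%, RBM15B at 23.4%, RBM15 at 45.7% and CBLL1 at 68.2% of all 10140 genes, while the minus-strand genes rose, METTL3 to 27.1%, METTL16 to 7.71% and ZC3H13 to 4.15%. The writers were also ranked among same-strand protein-coding genes with a span within a factor of 2 of their own. Most positions were close to the first ranking, with 2.12% for WTAP and 4.79% for ZC3H13. METTL3 moved the most, from 36.3% to 44.4%.

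By the number of bases in peaks the writers ranked higher than by their smallest score, except METTL3 and METTL16. At least as many peak bases as in ZC3H13 were found in 54 minus-strand genes (0.815%), and at least as many as in RBM15B in 48 plus-strand genes (1.37%). WTAP stood at 1.99%, RBM15 at 3.04%, VIRMA at 6.13% and CBLL1 at 30%. METTL16 was at 17.9% and METTL3 at 41.0%. RBM15, at 23.8% by its smallest score, had many short, weak peaks, and only 34 plus-strand genes (0.967%) had at least 6 peaks.

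Along the genes, 30 of the 33 peaks lay wholly inside the RefSeq span and 3 did not, the 5′ peaks of METTL3, WTAP and RBM15. The last 10% of the span held 7 of these 30 peaks (23.3%, 95% Wilson interval 11.8 to 40.9%), against 5963 of 15944 peaks of all protein-coding genes (37.4%). The interval treats peaks as independent, which peaks of 1 gene are not, covers counting error only and contains the share of all genes. Among peaks at or under the list median the share was 6 of 16 writer peaks (37.5%). It was 38.8% of the 8433 such peaks of all protein-coding genes. All 3 METTL16 records are among the 6 writer peaks, and 2 of them mark 1 place. The 37.5% thus rests largely on 1 gene, and no conclusion on the stronger peaks is drawn from it. The 7 peaks belonged to METTL16, ZC3H13, VIRMA and WTAP, so that 4 of the 8 writers (50%) had a peak there, near the 53.1% of protein-coding genes with a peak inside their span. The strongest peak lay in the last 10% for METTL16, 1 of the 6 writers (16.7%) whose strongest peak was inside the span, and for 40.6% of 7596 protein-coding genes. The strongest peaks of WTAP and RBM15 were not wholly inside the span and were left out of this count. A peak over the RefSeq 5′ end was found in METTL3 and WTAP, 2 of the 8 genes, and in 14.5% of the 8176 protein-coding genes with a peak. These shares are of the genomic span with its introns. Exons, UTRs and coding sequence were not used here.

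None of the 33 writer peaks shared a base with a peak listed on the opposite strand, whereas 10% of all peaks did, 17.8% of those on the plus strand and 7.07% of those on the minus strand. A count of 0 among 33 allows a share of up to 9.09% if the peaks are taken as independent, which peaks of 1 gene and the 2 overlapping METTL16 records are not. This limit is for both strands together and lies close to the 10% of all peaks. Each strand alone has fewer writer peaks, so a count of 0 there allows a higher share. A lower share than that of the list was therefore not shown for either strand or for both together. The peaks of WTAP and the 5′ peak of RBM15 lay within spans of genes on the other strand.

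Other genes of the m6A pathway gave a wider range. Of 20 such genes, 12 had a peak and 8 had one at or under the list median. Among all protein-coding genes, expressed in these cells or not, the shares were 40.8% and 26.6%, so these do not compare like with like. The median of the same-strand percentages of the 12 was 39.5%, with 7 of the 12 in the stronger 50%. The erasers, which remove the methyl group, were ALKBH5 with 1 peak (2.5e-19, 19.8%) and FTO with 0. Of 10 reader genes, 8 had a peak. YTHDF1 and HNRNPA2B1 were listed at 0, as ZC3H13 was, while the nuclear reader YTHDC1, on which the study centres, had 1 peak of 61 bases with a score of 0.0014 and was matched by 96.1% of minus-strand genes. Among other methyltransferases, PCIF1 (3 peaks, smallest score 2.2e-07) and METTL4 (2 peaks, 1.7e-07) had peaks. METTL5, ZCCHC4 and the methyltransferase partner TRMT112 had none. MAT2A, a target of METTL16, and MAT2B had no peak, and AHCY, which recycles the by-product of methylation, had 2 (1.6e-10).

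**Figure D4:**
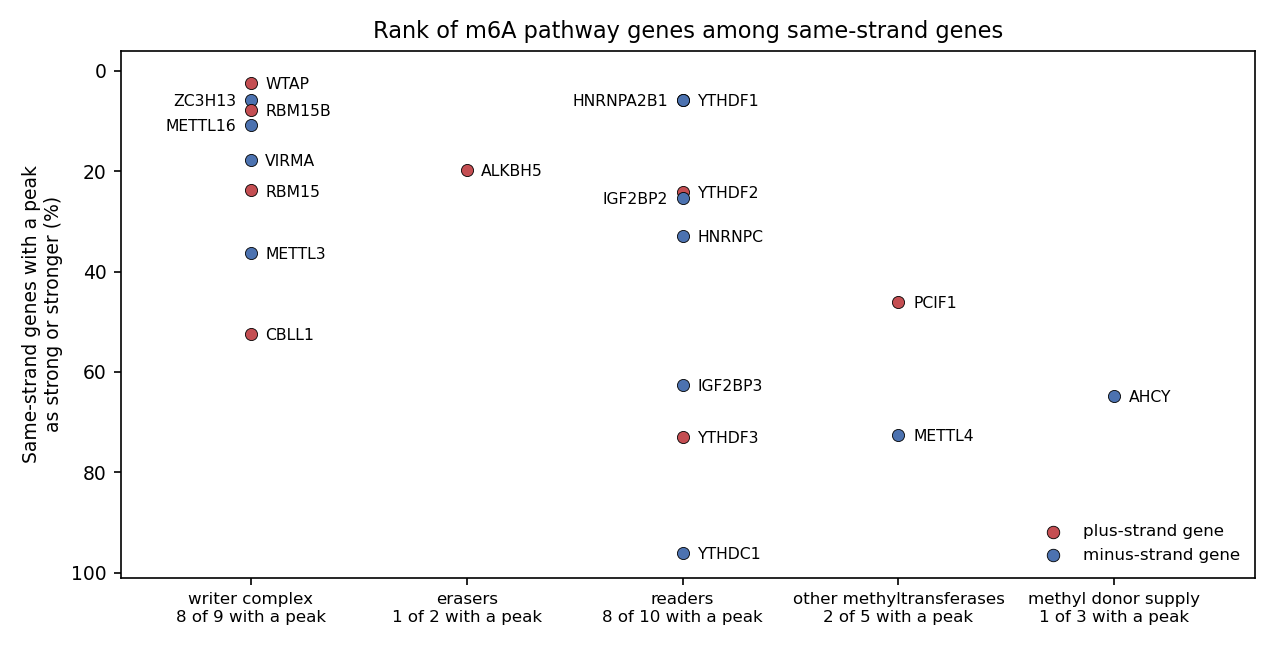
Share of same-strand genes with a peak as strong or stronger (y axis, 0% at the top is strongest) for each m6A pathway gene that had a peak, by group, 1 point per gene. Writers run from 2.36% to 52.4% and readers from 5.83% to 96.1%, and genes without a peak are counted only in the labels.

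Of the mesenchymal genes that mark the cell line, VIM had 1 peak (5e-27), while CD44 and AXL had none. Of the epithelial and receptor genes set against them, ERBB2 had 3 peaks, while CDH1, EPCAM, ESR1 and PGR had none. A list of peaks does not measure expression and cannot serve as a check of the cell type.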

How the data were processed

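The labels gave 4 libraries, 2 input and 2 IP, grouped by title. Per the methods and labels, the authors aligned reads with STAR to GENCODE v33 (hg38), called peaks with exomePeak at default settings and kept those with fold enrichment of at least 1 and FDR of at most 0.05. The deposited score is 1 value per peak, read as a p-value or FDR. A score of 0 was ranked at a −log10 of 324, the ceiling used in all plots. Each gene ID was matched without its version to a symbol (10103 of 10140) and by symbol to RefSeq GRCh38.p14 (9093), which gave spans. Strands of genes without peaks came from RefSeq start windows (15843 of 20037 protein-coding genes). Overlap meant at least 1 shared base. Positions are peak midpoints. No test was run, since no value exists per library. Functions were tested on simulated data. Python 3.11.15 and pandas 2.3.3 were used. The 9 genes, the other lists and the comparisons were chosen with earlier results of these data known. All peaks and genes of the list entered the main ranking, each gene within its own strand, while several alternative rankings used a subset of peaks or genes.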

Additional observations from a re-analysis of the deposited data

How the results depend on the processing

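The number of writers with a peak was 8 in the full list and without peaks that overlap the opposite strand, and 7 with peaks at or under the list median (CBLL1 lost) or in the first part of the list (METTL16 lost). The number of their peaks fell from 33 to 19 at or under the median, and was 32 after merging, 33 without opposite-strand overlaps and 30 in the first part alone. The median percentage of same-strand genes as strong as a writer (14.3%) was 4.59% when genes were ranked by spliced peak bases, and from 10.7% to 18.1% in the other 7 alternatives. Single writers moved more than this median. RBM15 moved from 23.8% to 44.7% without peaks wholly outside the span of their gene. Over both strands, RBM15B moved from 7.85% to 23.4%. By number of peaks, METTL16 moved from 10.8% to 31.2% and CBLL1 from 52.4% to 100%, while RBM15 moved the other way, to 0.967%. The share in the last 10% of the span (23.3%) was 37.5% at or under the median and 20.7% after merging. The cause was not tested for any of them. The use of the first part alone for peak numbers and ranks, and the removal of peaks outside the span, were chosen after the data were seen. Further comparisons were not planned beforehand either, among them those of peaks beyond the middle of the span and of the start windows.

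No paired analysis was possible because the score of a peak was made from all 4 libraries at once, and leaving out a replicate was not possible for the same reason. Without read counts, nothing can be said of how deeply METTL14 was covered.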
